A study of Mus musculus with 31 samples.

Results

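Of 55681 non-control probes on the mouse array, 16194 carry no gene name and are labelled only by a stretch of the mm9 mouse genome and a strand. They were chosen by that label alone, as the probes whose name in the scanner files starts with a chromosome, and are called interval probes here. Each is a single spot of 60 bases. Together they cover 4610 interval names, or 3543 genomic intervals when strand is ignored, with a median of 3 probes per name (1 to 10) and a median interval length of 7304 bases (62 to 7128487). Not all of these intervals are free of genes. On their own strand, 445 of the 4610 names contained a position that the same array probes under a current gene symbol, and 716 did so on either strand. Whether the others overlap an annotated transcript was not tested.

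The study profiled lung RNA of 31 female C57BL/6 mice, aged 6 weeks, on 31 arrays with 1 mouse each. Every mouse was anaesthetised with xylazine and ketamine and received 200 µl into the tail vein. Saline (physiological serum, 13 mice) served as the control, and oleic acid (1.2 µl per g of body weight, 18 mice), a fatty acid that injures the lung's small vessels when given intravenously, induced acute lung injury. Lungs were collected at 1, 1.5, 3, 4, 18 and 24 h, with no untreated mice and no mice at 0 h among the samples. The hour of day of injection and collection is not given in the sources used here, so time after injection and time of day cannot be told apart. Replicate 3 of oleic acid at 1.5 h, with a spike-in slope of 1.66, and replicate 2 at 3 h, with a slope of 0.751, were left out, and on the 29 arrays used the slope was 0.937 to 1.06. No label says that replicate numbers pair mice, and p-values measure the spread between the mice of these groups. The saline groups held 3 mice at 1 h and 2 at each other time. The oleic acid groups that were used held 3 mice each at 1, 4, 18 and 24 h and 2 each at 1.5 and 3 h.

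RNAs transcribed between protein-coding genes include long noncoding RNAs, transcripts of enhancers and unannotated ends of neighbouring messenger RNAs. They are usually less abundant than messenger RNAs and often restricted to a tissue or a state. A known example in lung is Neat1, the scaffold of nuclear paraspeckles, which is made in a short and a long form. Others are Malat1, an abundant nuclear RNA, and Mir22hg, the host transcript of a microRNA.

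The members on which the results over time turn lay in 4 intervals, named here by the gene whose probe lies nearest in mm9. Their probe sequences are shown because probes of the same interval, at separate positions, gave the same course. Within an interval the order is from the 5′ to the 3′ end of the transcript on the labelled strand. Sequences are 5′ to 3′ as the array files hold them, and no part is marked.
Pxdc1 neighbour, A_30_P01033354, chr13:34699350-34699409, reverse strand: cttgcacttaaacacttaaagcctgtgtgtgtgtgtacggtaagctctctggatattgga
Pxdc1 neighbour, A_30_P01019195, chr13:34699290-34699349, reverse strand: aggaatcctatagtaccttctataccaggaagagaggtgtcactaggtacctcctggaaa
Pxdc1 neighbour, A_30_P01024586, chr13:34699230-34699289, reverse strand: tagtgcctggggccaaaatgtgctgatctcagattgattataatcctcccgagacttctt
Pxdc1 neighbour, A_30_P01024922, chr13:34699170-34699229, reverse strand: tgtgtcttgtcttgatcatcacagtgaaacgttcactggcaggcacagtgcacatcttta
Neat1 neighbour, A_30_P01029006, chr19:5834857-5834916, reverse strand: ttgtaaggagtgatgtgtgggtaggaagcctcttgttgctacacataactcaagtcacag
Neat1 neighbour, A_30_P01025818, chr19:5834603-5834662, reverse strand: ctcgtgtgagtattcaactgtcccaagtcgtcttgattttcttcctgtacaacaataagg
Neat1 neighbour, A_30_P01019037, chr19:5834543-5834602, reverse strand: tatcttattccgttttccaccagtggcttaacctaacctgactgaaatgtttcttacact
Trip4 neighbour, A_30_P01032835, chr9:65676819-65676878, reverse strand: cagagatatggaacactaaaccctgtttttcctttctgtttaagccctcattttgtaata
Trip4 neighbour, A_30_P01031927, chr9:65676755-65676814, reverse strand: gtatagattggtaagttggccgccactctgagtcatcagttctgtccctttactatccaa
Gsta1 neighbour, A_30_P01018914, chr9:78116834-78116893, forward strand: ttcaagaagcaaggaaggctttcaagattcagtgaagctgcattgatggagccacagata
Gsta1 neighbour, A_30_P01028766, chr9:78116894-78116953, forward strand: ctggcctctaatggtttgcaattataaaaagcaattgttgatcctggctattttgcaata

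The 4 probes listed for the Pxdc1 neighbour tile 240 contiguous bases of the interval chr13:34693404-34717987 on the reverse strand, and 1 further probe, A_30_P01018665, lies just outside them. No probe overlapped another, so they are separate sequences. The interval's 8 probes on the forward strand were all too dim to be fitted. A_30_P01028766 of the Gsta1 neighbour has the same 60 bases as the array's own Gsta1 probe, so the probe does not separate the interval from that gene. In all, 76 interval probes shared their whole sequence with another non-control probe, 40 of them among the fitted probes described below.

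Interval probes were detected less often than other probes. On each array Agilent's software flags spots whose signal lies well above the local background. Over the 29 arrays between 28.5% and 73.7% of interval probes carried this flag (median 38.7%), against 59.7% to 85.6% of other spots (median 67.7%), and interval probes lay below the other spots on every one of them, with a median difference of -27.88 percentage points (-31.53 to -11.91). The share was 42.4% ± 11.8 after oleic acid (SD, n = 16, lowest 28.5%, median 39.2%, highest 73.7%). After saline it was 43.4% ± 13.8 (SD, n = 13, lowest 31.2%, median 38.7%, highest 72.8%). The ranges overlapped almost whole, and the difference of -1.001 percentage points was not distinguishable from 0 (permutation test with 100000 resamples, two-sided, p = 0.835).

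The highest shares came from 5 arrays on which over 70% of all spots were above background. In saline these were replicate 1 at 1 h, replicate 2 at 1.5 h and replicate 2 at 18 h, and in oleic acid replicate 2 at 1 h and replicate 2 at 18 h. On them 59.0% to 73.7% of interval probes were above background, against 28.5% to 48.9% on the other 24 arrays. Without these 5 arrays the difference between treatments became 1.97 percentage points (permutation p = 0.352), so its sign was not stable. Leaving out replicate 1 of saline at 1 h alone turned it to 1.45. By time, from 1 to 24 h, the mean share was 51.3%, 47.7%, 35.5%, 34.7%, 48.9% and 38.2% after saline. After oleic acid it was 50.3%, 41.9%, 43.5%, 32.5%, 49.7% and 36.5%. The groups with a mean of 47% or more were the 5 that hold one of these arrays.

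Detection fell unevenly over the probes. Of the 16194 interval probes, 3500 (21.6%) were above background on all 29 arrays and 2102 (12.98%) on none. The 5967 (36.8%) that were above background on at least 15 of the 29 arrays are the fitted probes, against 25760 of 39487 other probes (65.2%). They represent 2789 of the 4610 interval names. Among the 1067 intervals probed on both strands, 513 had a fitted probe on each strand, 187 on the forward strand only, 217 on the reverse strand only and 150 on neither. Signal from both strands was therefore the commonest outcome for an interval probed on both.

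Base composition moved with detection. The share of interval probes fitted was 13.1% (of 442) below 35% G and C and 28.4% (of 3761) at 35% to 40%. It was 33.4% at 40% to 45%, 33.7% at 45% to 50%, 52.6% at 50% to 55%, 55.5% at 55% to 60% and 76.8% (of 604) at 60% or more. Among other probes the shares in the same order were 44.8%, 61.2%, 64.4%, 65.9%, 76.4%, 78.0% and 80.6%. The gap between the kinds of probe was thus about as wide in each class below 50% and narrower above it. The part of G and C content in the gap was not tested. Interval probes less often held the polyadenylation signal AATAAA, read on the probe's strand, with 3.92% against 12.6% of other probes, and fitted (3.89%) and unfitted (3.93%) interval probes held it about as often. A run of at least 6 A at the 3′ end was found in 1.12% of interval probes and 1.22% of other probes.

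Levels are log2 values of the processed signal, from which the 75th percentile over an array's non-control spots was subtracted, so that 0 is the level below which 75% of non-control spots lie. Differences between times are on that log2 scale. Each probe was tested in limma for any difference among the 6 times within saline and within oleic acid, with Benjamini-Hochberg adjustment over all 31727 fitted probes of the array and a threshold of 0.05. Over the 6 saline times 297 interval probes (4.98%) passed, where 5.01% of all fitted probes did. Over the 6 oleic acid times 265 (4.44%) passed, where 4.76% of all did. In both treatments 137 (2.30%) passed, where 2.29% of all did, so interval probes changed over time about as often as the array as a whole. These 137 probes came from 90 interval names, and in only 1 interval did probes of both strands pass. Of the 137, 2 have the sequence of another probe.

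Part of the 137 probes fell into opposite courses. In both treatments, 41 had their highest group mean at 3 or 4 h and their lowest at 18 or 24 h, and 34 had the reverse. The rest followed neither course in both treatments. These courses were not counted for the other fitted probes, so whether they are particular to interval probes was not tested. To compare late with early times, the mean of the 18 and 24 h groups was set against the mean of the 1, 1.5, 3 and 4 h groups. After saline 205 interval probes differed (98 higher and the others lower), where 2.99% of all fitted probes did, with 1.44% higher and 1.55% lower. After oleic acid 329 differed (129 higher and 200 lower), where 5.26% of all did, with 2.11% higher and 3.15% lower. In both treatments 137 passed, a separate count from the 137 above, where 2.15% of all did, and each of them moved in the same direction in both (59 higher, 78 lower). The split into higher and lower depends on the scaling. Of the probes called in saline 47.8% were higher, but 23.0% after quantile normalization, 14.3% after centring on the median, 38% after normexp background correction and 26.6% in the authors' deposited table. For oleic acid the share was 39.2%, and 26.9% after normexp or 25% after centring on the median.

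The counts depended on single arrays. The count for saline fell from 205 to 62 without saline 18 h replicate 1, to 71 without saline 24 h replicate 1, to 129 without saline 1.5 h replicate 1 and to 132 without saline 3 h replicate 2. The count for oleic acid fell from 329 to 178 without oleic acid 24 h replicate 1 and to 215 without oleic acid 18 h replicate 1. Without the 5 arrays named above for their many detected spots, the counts were 135 and 218. The array slides followed the time of collection. Slides and late against early times in oleic acid mice cannot be told apart, but slide 3 held the saline mice of both 4 h and 18 h. Within it, saline 18 h minus 4 h gave 234 interval probes (3.92%), of which 105 were higher (1.76%) and 129 lower (2.16%). Of all fitted probes 6.06% passed, with 1.83% higher and 4.23% lower. In this comparison interval probes were thus called less often than the array as a whole, mainly among the falls. These 4 saline arrays also enter the saline comparison of late and early times. Between oleic acid 18 and 24 h, within slide 4, 0 interval probes passed in limma (165 at an unadjusted p below 0.05), and 0% of all did.

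Most of the late differences were small. Among the 3500 probes above background on all arrays, the middle 90% of late minus early differences lay between -0.47 and 0.55 after saline and between -0.57 and 0.45 after oleic acid. A change of at least 2-fold was reached by 44 probes after saline, 34 of them past the threshold, and by 30 after oleic acid, 24 of them past it. Of the 3500, 3233 passed in neither treatment, 44 in saline alone, 129 in oleic acid alone and 94 in both. Among all fitted probes of the array, 2.99% passed after saline, 5.26% after oleic acid and 2.15% in both. The larger number after oleic acid was thus not particular to interval probes. In the test of a difference in course between treatments, given below, 0 interval probes passed. Over the 3500 probes the saline and oleic acid differences correlated with Pearson r = 0.732, across probes and with shared slides, so this is a description only.

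The Pxdc1 neighbour had the smallest p of all interval probes in both treatments. Saline levels of A_30_P01024922 were 0.74, 0.88 and 0.91 at 1 h, 0.85 and 1.15 at 1.5 h, 2.39 and 2.85 at 3 h, 1.99 and 2.97 at 4 h, -0.47 and -0.47 at 18 h, and 0.15 and 0.52 at 24 h. Oleic acid levels were 0.90, 1.03 and 1.25 at 1 h, 0.49 and 0.985 at 1.5 h, 2.10 and 2.18 at 3 h, 1.93, 2.76 and 1.83 at 4 h, -0.20, -0.20 and -0.36 at 18 h, and -0.38, -0.16 and -0.14 at 24 h. In both treatments every array at 3 and 4 h lay above every array at 1 and 1.5 h, and every array at 18 and 24 h lay below all earlier ones. The late mean was 3.49-fold lower than the early one after saline (95% interval 2.70 to 4.50, limma adjusted p = 2.42e-05) and 3.40-fold lower after oleic acid (2.73 to 4.24, adjusted p = 3.75e-06). Within slide 3, saline 18 h lay 2.95 below 4 h on the log2 scale (-2.95, adjusted p = 5.94e-05). The other 4 probes of the interval fell late by 3.06- to 3.49-fold after saline and by 2.93- to 3.35-fold after oleic acid. The nearest probed gene on that strand, Pxdc1 at 20.5 kb, had late differences of 0.88 and 0.89 and passed in neither treatment.

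The genes whose probes followed A_30_P01024922 most closely over the 29 arrays were Xpo4 (Pearson r = 0.970), Tmem128 (r = 0.962) and Odf2 (r = 0.953), the highest of 17050 gene probes. Xpo4 encodes a nuclear export receptor. These correlations share the arrays and the slides.

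The Neat1 neighbour, chr19:5834117-5835940 on the reverse strand, showed the same kind of course. Saline levels of A_30_P01019037 ran from 1.79 to 2.60 at 1 and 1.5 h (median 2.40, n = 5), from 3.14 to 4.17 at 3 and 4 h (median 3.74, n = 4) and from 0.19 to 1.41 at 18 and 24 h (median 0.73, n = 4). Oleic acid levels ran from 2.00 to 2.68 (median 2.40, n = 5), from 3.11 to 3.89 (median 3.27, n = 5) and from 0.54 to 1.21 (median 0.88, n = 6) over the same times. The 3 ranges did not overlap in either treatment. Late levels were 4.67-fold lower after saline (3.33 to 6.54, limma adjusted p = 3.9e-05) and 4.02-fold lower after oleic acid (3.01 to 5.38, adjusted p = 1.4e-05), and the interval's other probes fell by 3.72- and 4.60-fold after saline and by 2.97- and 3.76-fold after oleic acid.

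Neat1 itself, probed 8.02 kb away on the same strand, moved the other way. Its level was 5.54 and 5.80 at saline 3 h and 5.37 and 5.07 at oleic acid 3 h, below its range of 6.01 to 6.52 at 1 and 1.5 h. It was higher late than early by 0.61 after saline (limma adjusted p = 0.00453) and by 0.59 after oleic acid (adjusted p = 0.00114). Whether the interval belongs to the long form of Neat1 was not tested, since no mm9 annotation was used here. Named genes that followed the Neat1 neighbour most closely were Ppp2ca, a catalytic subunit of protein phosphatase 2A (r = 0.957), Nfkbib, an inhibitor of NF-kappaB (r = 0.923), and Eif1, a translation initiation factor (r = 0.906, 29 arrays each).

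The Trip4 neighbour moved less. Saline levels of A_30_P01031927 ran from -1.06 to -0.28 at 1 to 4 h (median -0.91, n = 9) and from -1.35 to -1.05 at 18 and 24 h (median -1.31, n = 4). After oleic acid they ran from -0.96 to -0.42 (median -0.70, n = 10) and from -1.51 to -1.35 (median -1.42, n = 6). Late and early arrays overlapped slightly after saline and not after oleic acid. The fall was 1.46-fold after saline (1.30 to 1.65, limma adjusted p = 0.00119) and 1.60-fold after oleic acid (1.45 to 1.77, adjusted p = 2.1e-05), and its companion A_30_P01032835 fell 1.64- and 1.35-fold, which passed under 39 and 38 of 44 alternatives. Trip4 itself passed in neither treatment. Both calls of A_30_P01031927 were lost after centring on the median. They were also lost with all 31 arrays, with limma adjusted p-values of 0.553 after saline and 0.105 after oleic acid. Its level followed that of Mir22hg over the 29 arrays (r = 0.938), the named noncoding RNA with the smallest p in the list below.

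The Gsta1 neighbour gave the largest rises. Saline levels of A_30_P01028766 ran from -4.27 to -2.25 at 1 to 4 h (median -3.15, n = 9) and from -0.95 to 0.11 at 18 and 24 h (median -0.43, n = 4). Oleic acid levels ran from -4.15 to -1.62 (median -2.80, n = 10) and from -1.19 to 1.32 (median -0.05, n = 6). Early and late arrays did not overlap in either treatment. The rise was 6.55-fold after saline (3.99 to 10.8, limma adjusted p = 0.000281) and 6.91-fold after oleic acid (4.50 to 10.6, adjusted p = 2.4e-05). Within slide 3 the saline rise from 4 to 18 h was 1.74 and did not pass (adjusted p = 0.0721). Since the Gsta1 probe, 26.5 kb away by the files' positions, has the same bases, its rise of 2.93 and 2.68 on the log2 scale is a second spot of the same measurement (r = 0.960 over 29 arrays) and not a gene beside the interval. Gsta1 encodes a glutathione transferase that conjugates glutathione to electrophiles. The interval's other fitted probe, A_30_P01018914, shares a run of at most 23 bases with any probe not named by an interval, and it rose 6.67- and 5.77-fold. Gsta2, a close paralogue probed nearby, differed by 0.63 and 0.52 and did not pass.

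A further set of intervals is shown because each gave one of the largest late changes, or a course not described by late against early means. As above, each is named by the nearest probed gene.
Zswim6 neighbour, A_30_P01020161, chr13:108653893-108653952, reverse strand: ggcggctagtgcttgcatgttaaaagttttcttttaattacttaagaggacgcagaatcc
H2ac15 neighbour, A_30_P01023737, chr13:21858407-21858466, reverse strand: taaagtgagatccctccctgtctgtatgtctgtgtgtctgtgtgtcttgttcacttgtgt
Plekho2 neighbour, A_30_P01019072, chr9:65383868-65383927, reverse strand: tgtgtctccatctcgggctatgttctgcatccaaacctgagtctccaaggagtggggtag
Btg1 neighbour, A_30_P01022510, chr10:96103807-96103866, forward strand: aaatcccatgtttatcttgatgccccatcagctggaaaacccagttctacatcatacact
Smad6 neighbour, A_30_P01026182, chr9:63774823-63774882, reverse strand: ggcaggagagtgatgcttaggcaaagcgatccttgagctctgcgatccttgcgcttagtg
Sox4 neighbour, A_30_P01022276, chr13:28947106-28947165, reverse strand: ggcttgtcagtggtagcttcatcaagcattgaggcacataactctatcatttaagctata
Plac1 neighbour, A_30_P01021240, chrX:50406515-50406574, reverse strand: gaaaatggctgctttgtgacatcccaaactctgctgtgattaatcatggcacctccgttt

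The Zswim6 neighbour was highest at 3 h and stayed above its first levels. Levels of A_30_P01020161 were 1.69 and 1.48 at saline 3 h and 1.67 and 1.27 at oleic acid 3 h, against -0.33 to 0.54 over the 10 arrays at 1 and 1.5 h and 0.73 to 1.24 over the 15 later arrays. Every array from 3 h on lay above every array at 1 and 1.5 h. It passed over time in both treatments (adjusted p = 0.00105 and 0.00172) although its late minus early differences (0.18 and 0.33) did not. Its level followed that of Plk2, a polo-like kinase (r = 0.920), and of Egr1, an immediate early transcription factor (r = 0.838, 29 arrays).

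The H2ac15 neighbour was high at both 3 and 4 h. Levels of A_30_P01023737 ran from 5.97 to 6.42 at 3 and 4 h in the 9 mice of both treatments and from 4.10 to 5.85 at 1 and 1.5 h. They lay between 4.55 and 5.28 at 18 and 24 h. The late mean was 1.94-fold lower than the early one after saline (1.53 to 2.47) and 1.52-fold lower after oleic acid (1.24 to 1.87). These falls passed under 43 and 38 of 45 alternatives. Pdk4, a kinase that restrains pyruvate use in fasting, was among the 3 genes that followed it most closely (r = 0.905), with Maff, a small Maf factor (r = 0.908), and Wdr92 (r = 0.946).

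Large late falls were also found in the Plekho2, Btg1 and Smad6 neighbours. A_30_P01019072 (Plekho2) fell 4.19-fold after saline and 3.16-fold after oleic acid, A_30_P01022510 (Btg1) 4.15- and 3.00-fold, and A_30_P01026182 (Smad6) 2.82- and 3.89-fold. The saline fall of A_30_P01026182 passed under 32 of 45 alternatives, with a log2 difference of -1.49 here and -0.70 after normexp correction (limma adjusted p = 0.0801). It was lost on leaving out any one of 8 saline arrays (replicates 1 and 2 at 1.5, 3 and 24 h, replicate 2 at 4 h and replicate 1 at 18 h), with an adjusted p of up to 0.213. The Plekho2, Btg1 and Smad6 gene probes did not pass in either treatment. In the Plekho2 and Btg1 neighbours the 4 h arrays disagreed. A_30_P01019072 read -1.57 and 0.95 at saline 4 h, and A_30_P01022510 read -1.13 and 0.79 on the same 2 arrays. Saline 24 h replicate 2 lay within the early saline range for both probes. It read -0.54 for A_30_P01019072, against -2.60, -1.99 and -2.01 on the other late saline arrays. For A_30_P01022510 it read 0.45, against -2.59, -1.51 and -1.54. Within the Plekho2 neighbour, 5 fitted probes lie close together. Of them, 2, A_30_P01029030 and A_30_P01019472, did not pass late against early in either treatment, with differences between -0.25 and -0.39. A_30_P01024094, above background on 26 arrays, passed after saline but not after oleic acid (-1.52, limma adjusted p = 0.0745). A_30_P01020903, above background on only 20 arrays, passed narrowly in both (limma adjusted p = 0.0497 after saline and 0.0383 after oleic acid).

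Late rises were found in the Sox4 and Plac1 neighbours. A_30_P01022276 (Sox4) rose 2.92-fold after saline and 1.89-fold after oleic acid. The rise after oleic acid passed under 27 of 44 alternatives and was lost, among others, after quantile normalization (limma adjusted p = 0.0571) and on leaving out any one of 11 of the 16 oleic acid arrays (adjusted p up to 0.104). Sox4, a transcription factor of the SRY-box family, lies 93.7 kb away, and all 3 of its probes were themselves higher late, by 0.79 to 0.94 after saline and by 0.75 to 0.77 after oleic acid (limma adjusted p at most 0.0301). A_30_P01021240 (Plac1) rose 2.38- and 2.07-fold, from a range of -3.39 to -1.46 at saline 1 to 4 h (median -2.21, n = 9) to -1.51 to -0.56 late (median -1.03, n = 4). Its rises passed under 39 and 42 of 44 alternatives. A further probe of the Sox4 neighbour, A_30_P01031644, rose 2.78-fold after saline and 1.9-fold after oleic acid, where it did not pass. A further probe of the Plac1 neighbour, A_30_P01032068, rose 2.15-fold after saline, where it did not pass, and 2.21-fold after oleic acid.

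In the Ikzf2 neighbour, chr1:69531191-69570566 on the reverse strand with 4 fitted probes of 5, the late mean was lower than the early one after oleic acid in part of the probes. A_30_P01027585 fell 1.59-fold (1.32 to 1.91, limma adjusted p = 0.00452) and A_30_P01017578 fell 1.63-fold (1.35 to 1.98, adjusted p = 0.00405) after oleic acid, and neither passed late minus early after saline. The other fitted probes, A_30_P01017761 and A_30_P01024742, differed by -0.31 and -0.25 after oleic acid and did not pass. Neither of these was above background on every array. The lowest levels of A_30_P01027585 were not late. They read -2.58, -2.27 and -2.89 at oleic acid 4 h and ran from -2.62 to -1.85 at 18 and 24 h. In the test of a difference in course between treatments, given below, neither passed. A probe of Ikzf2, which encodes the lymphocyte transcription factor Helios, was higher late by 0.72 after oleic acid (limma adjusted p = 0.0306). The gene's other fitted probe, A_66_P122551, differed by 0.49 and did not pass (limma adjusted p = 0.226).

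An apparent saline rise rested on a single array. A_30_P01018504, of the interval near Hnrnpr, had a level of 1.02 in saline 18 h replicate 1 and of -2.03 or lower on each of the other 28 arrays. Its saline difference of 1.46 (adjusted p = 0.0325) became 0.70 without that array.

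Probes of the same interval did not always agree. Of 1497 interval names with at least 2 fitted probes, 76 had a probe passing over time in both treatments, and in 30 of these at least 2 did. Where at least 2 probes of a name passed late minus early after oleic acid, as in 66 names, their direction was the same in 64. Over 839 names with at least 2 probes above background on all arrays, the correlation between probes across the 29 arrays had a median of 0.575 and quartiles of 0.353 and 0.766. The extremes were intervals such as the Neat1 neighbour (0.993 to 0.998 between its 3 probes) and the Bnip3l neighbour, chr14:67585234-67596823 on the reverse strand, where 7 probes ranged from -0.777 to 0.924. In the latter, A_30_P01028796 passed over time in both treatments (adjusted p = 0.00105 and 0.0156), while 4 other probes of the interval passed in neither. A_30_P01030691, close by, also passed in both (limma adjusted p = 0.0215 and 0.0235). A_30_P01027862, which lies between them, passed in saline alone (limma adjusted p = 0.0161, and 0.0870 in oleic acid).

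Some fitted probes went below detection in a whole group, where only a bound can be given. Of the 425 interval probes that passed over time in at least 1 treatment, 57 were above background on no array of at least 1 group. The same count was not made over all fitted probes, so this number is not a trait of the interval probes. A_30_P01019648, a further probe of the Smad6 neighbour, was at least 6.28-fold higher at saline 3 h than at 24 h. A_30_P01030694, 1.43 kb from E430024I08Rik, was at least 4.55-fold higher at saline 18 h than at 3 h, and A_30_P01028603, on chromosome X near 2010204K13Rik, was at least 3.19-fold higher at oleic acid 18 h than at 4 h. Such a bound sets the bright group against, on each dim array, the higher of the probe's own signal and the lowest signal that counted as detected. For A_30_P01019648 the probe's own signal was the higher one.

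Interval probes were then compared with the nearest gene. Each of 5919 fitted interval probes was set against the nearest fitted probe with a current gene symbol in mm9, and across them the late minus early differences of probe and gene correlated with r = 0.109 after saline and 0.0962 after oleic acid, which shares the arrays and is a description. For the 1203 pairs under 10 kb on the same strand the values were 0.300 and 0.211. Of the 326 of these interval probes that passed late minus early after oleic acid, the neighbour passed in the same direction for 14, in the opposite direction for 15 and not at all for 297. The neighbour thus passed for 29 of 326 (8.90%), where 5.26% of all fitted probes passed, and several interval probes can share a neighbour. Pairs with the same sequence were not removed. The 14 in the same direction include A_30_P01028766 and the Gsta1 probe, which have the same bases.

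Named noncoding RNAs and clock genes gave a frame for these courses. Of 77 listed noncoding RNA genes, 46 were on the array and 36 were fitted, of which 3 passed over time in saline, 4 in oleic acid and 3 in both. Those 3 were Mir22hg, which fell late by 1.06 after saline and 1.16 after oleic acid on the log2 scale, Neat1, and Snhg16, a host of small nucleolar RNAs, which fell by 0.43 and 0.43. Malat1 passed over oleic acid times only. Late against early, however, it passed in both treatments, with differences of -0.58 after saline and -0.48 after oleic acid (limma adjusted p = 0.0346 and 0.0277). Of 20 listed clock genes and outputs, 18 were fitted, 7 passed in saline, 11 in oleic acid and 7 in both. Per1, a repressor of the clock, fell late by 2.38 and 2.01, and Nr1d1, which represses Arntl, by 1.96 and 1.93. The median late difference of the 18 was -0.67 after saline and -0.63 after oleic acid, against 0.007 and -0.02 over all fitted probes. The level of Per1 correlated over the 29 arrays with that of A_30_P01024922 (r = 0.907), A_30_P01031927 (r = 0.849) and A_30_P01019037 (r = 0.836), with 18 clock genes looked at for each. The other interval probes looked at were A_30_P01023737 (r = 0.678), A_30_P01028766 (r = -0.682) and A_30_P01020161 (r = 0.0186). These lists were chosen with results of the series known, so they are no independent support, and the part of the hour of day in any of these courses was not tested.

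Markers of lung tissue (10 genes, 10 fitted) had a mean level between 5.57 and 6.05 on every array, and 0 of the 10 passed over time or late against early. Lists for heart muscle, fat, red cells, skeletal muscle, thymus, neutrophils and liver likewise had 0 members passing over time, and of 4 B cell genes 1 passed, in saline. The neutrophil list's 5 fitted genes had a mean level of 2.503 to 4.05 in early saline arrays and 2.16 to 3.11 in late ones, and of 2.37 to 3.93 and 1.64 to 3.49 after oleic acid. Fat markers ran from -1.06 to 2.91 over all arrays, and liver markers from -0.90 to 5.81. The part of these cells in the courses above was not tested, and fewer cells of a type cannot be told from less RNA per cell in whole lung.

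Oleic acid and saline were then compared at each time, to see which interval RNAs respond to the injury. Across any time, and as a difference of courses, 0 interval probes passed in limma (268 and 162 at an unadjusted p below 0.05, or 4.49% and 2.71%, against 3.35% and 2% of all), and 0% of all fitted probes did. At 1, 1.5, 3, 4 and 18 h, and over 1 to 4 h, 0 interval probes passed as well (178, 134, 441, 407, 232 and 549 at an unadjusted p below 0.05), where 0% of all did. As shares, the unadjusted counts were 2.98%, 2.25%, 7.39%, 6.82%, 3.89% and 9.2% of interval probes, against 4.17%, 1.42%, 6.89%, 7.89%, 1.89% and 8.46% of all. Over 18 and 24 h 1 interval probe passed, where 0.00315% of all did, with 252 at an unadjusted p below 0.05 (4.22%, against 2.8% of all). At 24 h 1 passed, lower after oleic acid, where 0.00946% of all passed and 0.0063% were lower, with 241 at an unadjusted p below 0.05 (4.04%, against 4.63% of all). As a group, fitted interval probes were lower after oleic acid over 18 and 24 h, with a median difference of -0.17 against -0.04 for other fitted probes. After centring on the median the interval median was 0.08, and after quantile normalization it was -0.007, so this direction depends on the scaling. Relative to the median of all fitted probes, interval probes lay lower, with -0.17 against -0.06. After quantile normalization the gap was smaller, with -0.007 against 0.02. Centring on the median (0.08 against 0.19) shifts all probes of an array alike, so it could not change this gap and is no check of it.

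The probe that passed at 24 h is shown for its sequence, and it lies on the strand opposite to the nearest probed gene.
Scn8a neighbour, A_30_P01017903, chr15:100905368-100905427, reverse strand: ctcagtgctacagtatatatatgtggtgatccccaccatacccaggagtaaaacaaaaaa

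The probe that passed over 18 and 24 h, A_30_P01028106, rose 4.12-fold late after saline (limma adjusted p = 0.000549), and its late difference after oleic acid did not pass. Its saline levels were -2.29 and -1.23 at 18 h and -3.17 and -1.51 at 24 h. Oleic acid levels were -4.46, -4.01 and -4.56 at 18 h and -4.35, -4.30 and -4.32 at 24 h. At both times every oleic acid array lay below every saline array, and at 24 h the probe was above background on 1 of 3 oleic acid arrays. At 18 h, where all 5 arrays were above background, the level was 6.00-fold lower after oleic acid. Over both times the fitted level was 4.87-fold lower (limma adjusted p = 0.00832), with 2 of the 6 oleic acid arrays not well above background. At 1 to 4 h the treatments differed by 0.0004 (95% interval -0.45 to 0.45). The call was lost without saline 24 h replicate 2 (-1.87, adjusted p = 0.105). It was also lost with the replicate block (adjusted p = 0.056), after median centring (adjusted p = 0.399), after quantile normalization (adjusted p of 1) and in the authors' deposited table, where the log2 difference was -0.956 (adjusted p = 0.175). Slide 3 held all saline 18 h arrays while slide 4 held all oleic acid 18 h arrays, so at 18 h treatment and slide cannot be told apart.

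A_30_P01017903, 29.7 kb from Scn8a, was bright in the saline mice of 24 h alone. It read -1.44 and 0.20 there, and -5.48, -4.92 and -5.11 in oleic acid mice of that time, where it was above background on 0 of 3 arrays. On all other 24 arrays it lay between -6.93 and -3.58. The level at 24 h was at least 23.4-fold lower after oleic acid (limma adjusted p = 0.0153), a log2 difference of -4.55, where the bound is the probe's own signal. In the authors' deposited table the log2 difference was -1.06 and did not pass (adjusted p = 0.885). The call was also lost with slide as a fixed term (adjusted p = 0.0586), after quantile normalization (0.584) and with all 31 arrays (0.565). The call was lost without saline 24 h replicate 2 (-3.73, adjusted p = 0.159) or without oleic acid 24 h replicate 1 (-4.39, adjusted p = 0.101).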

How the data were processed

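Cy3-labelled RNA, from 200 ng per mouse, was read on Agilent arrays of 62976 spots. Per the file headers, the authors read them with Agilent Feature Extraction 10.5.1.1, and the deposited scanner files hold intensity values, with a processed signal already corrected for background, and flags of 0 or 1. The deposited log2 table of the authors, with column medians of 5.97 to 6.15, was an alternative; its normalization is not stated, and it compresses dim probes. The number of arrays limits the precision.

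Values were log2 of the processed signal minus the 75th percentile of the array over 59305 non-control spots, without outlier-flagged spots. In limma 3.58.1 (R 4.3.3) the 12 group means were fitted to 29 arrays for the 31727 probes above background on at least 15, with Benjamini-Hochberg adjustment. Arrays of a group correlated with r of 0.935 to 0.989 and none were identical. The members, lists and tests were chosen with earlier results of these data known. A_30_P01020903 and A_30_P01024094 of the Plekho2 neighbour and A_30_P01017761 and A_30_P01024742 of the Ikzf2 neighbour were not above background on all 29 arrays. The other named interval probes were above background on all 29 arrays, except those given as bounds, A_30_P01019195, and A_30_P01028106 and A_30_P01017903, the only ones that passed between treatments, whose dim arrays are counted beside their values. They were up to 10 with the smallest p over time per treatment and in both, the 5 largest late rises and falls, up to 5 with the smallest p between treatments (2 where none passed), up to 5 intervals with several fitted probes and up to 5 dim probes, with the nearest gene and, for 6, the most correlated one, and up to 4 genes per list. Not every such probe is printed, and the position and nearest gene of 1 probe are not reported here. Positions are mm9, as the files give them, and nearest means the nearest gene-named probe. Symbols were updated through a RefSeq table of another build, used for names only, which gave a symbol for 29676 of 39487 other probes. The late means weight each time equally. Alternatives were normexp correction (offset 50), other scalings, filters, arrays, slide terms, array weights, a replicate block and omission of each array. The script was tested on simulated data.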

Additional observations from a re-analysis of the deposited data

Results flagged for a closer look

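On oleic acid 3 h replicate 2, one of the 2 arrays left out of the comparisons, 99.67% of interval probes were above background, more than on any saline array (at most 72.8%). Its spike-in slope of 0.751 lay below the range of the 29 arrays used.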

How the results depend on the processing

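Counts of interval probes are given in the order saline over 6 times, oleic acid over 6 times, late minus early in saline, late minus early in oleic acid, both over 6 times and both late minus early, against 297, 265, 205, 329, 137 and 137 in the report. At an adjusted p under 0.01 they were 57, 72, 64, 1.1e+02 (rounded), 28 and 43. They were 134, 133, 135, 153, 60 and 65 after quantile normalization, 17, 22, 28, 28, 11 and 17 after median centring, and 147, 132, 128, 175, 66 and 72 in the authors' deposited table. With no filter on dim probes they were 103, 164, 109, 203, 45 and 73, with all 31 arrays 6, 23, 16, 30, 4 and 8, without the 5 arrays with the most detected spots 118, 110, 135, 218, 44 and 73, and with 1 probe per name, which tests fewer probes, 118, 121, 70, 161, 54 and 52. Normexp gave 152, 108, 208, 73 and 80, with oleic acid over 6 times within 1.5 times of the count above. Slide as a random block gave 479 and 583 in oleic acid and 210 for both over 6 times, and array weights gave 1249 for saline over 6 times, 647 for oleic acid late minus early and 250 for both over 6 times. The causes were not tested.

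Oleic acid against saline gave 1 probe at any time in the deposited table, 2 under the filter by group, 2 with no filter and 4 without the 5 arrays, and a difference in course gave 1 by group and 3 without the 5. The count over 1 to 4 h was 1 by group. Over 18 and 24 h it was 3 with normexp, by group and with no filter, 6 without the 5 arrays, and 0 with quantile, median centring, the replicate block, 1 probe per name or probes above background on all 29 arrays. At 1 h array weights gave 39, at 4 h 4, and at 1.5 h 1, where the group filter and no filter gave 1 and omission of the 5 arrays 8. At 3 h there was 1 with outlier spots kept and 4 with slide as a fixed term. At 18 h there were 4 (normexp, deposited table, group filter), 3 (no filter), 1 (quantile, outlier spots kept) and 11 (without the 5). At 24 h the count was 0 at 0.01, with quantile, the deposited table, probes above background on all 29 arrays, all 31 arrays, without the 5, or with slide fixed. The difference in the share above background was 2.517 points with all 31 arrays and 1.969 without the 5.

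Leaving out 1 array at a time gave 137 to 421, 167 to 305, 62 to 247, 178 to 355, 82 to 164 and 47 to 152 for the counts in the order above. The lowest came without replicate 1 of saline at 1.5 h, replicate 1 of oleic acid at 4 h, replicate 1 of saline at 18 h, replicate 1 of oleic acid at 24 h, replicate 2 of saline at 3 h and replicate 1 of saline at 18 h. For oleic acid against saline it gave 0 to 3 at any time and in course, 0 to 1 over 1 to 4 h, 0 to 7 over 18 and 24 h, 0 at 1 h, 0 to 5 at 1.5 h, 0 to 33 at 3 h (33 without replicate 1 of oleic acid), 0 to 9 at 4 h, 0 to 11 at 18 h and 0 to 9 at 24 h. The share moved from -3.091 to 1.45. Groups reduced to 1 array were assumed to vary like the others.

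With the replicate block the first 4 counts were 304, 259, 207 and 329. Arrays sharing a number had deviations that correlated from -0.694 to 0.618 (12 pairs), so the numbers were not taken to pair mice. Of 57 differences of named probes 20 passed under every alternative run and 0 changed sign. Median centring moved the median of all fitted probes by -0.27 late minus early in saline. Slide could not be fitted as a fixed term for late against early times. Signal near background limits the dim probes to bounds.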
